A study of Mus musculus with 2 samples.

Results

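Cycling macrophages were 636 of the 23001 cell barcodes kept from the adductor muscles of mice on day 7 after femoral artery ligation, 385 in the WT library and 251 in the Apoa1bp-/- library. A barcode was taken as a macrophage when it held at least 1 UMI (unique molecular identifier, a count of 1 captured transcript) of Csf1r and at least 5 UMIs of C1qa, C1qb and C1qc together, with no Pdgfra, Cdh5 or Cdh15. It was taken as cycling when at least 3 of 8 division genes were detected (Mki67, Top2a, Birc5, Nusap1, Ube2c, Ccna2, Cdk1 and Tpx2), Mki67 or Top2a among them. Macrophages with none of the 8 genes, 3603 in WT and 1961 in Apoa1bp-/-, were the non-cycling cells set beside them, and 748 and 680 macrophages lay between. Ligation of the femoral artery makes the downstream muscle ischaemic, and it had been done in 4 Apoa1bp-/- mice and 4 control littermates, whose library is labelled WT. Apoa1bp, named Naxe in these files, encodes the secreted apolipoprotein A-I binding protein, which is also an epimerase that repairs damaged NAD(P)H. Dissociated cells of the whole muscle were captured on the 10x Genomics platform and gave 1 library per genotype; how the mice were pooled was not given in the sources used here. With 1 library per genotype no difference between genotypes was tested, and genotype and library cannot be told apart.

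Macrophages divide in tissues as well as arising from blood monocytes, and CSF1 acting on its receptor CSF1R is the main signal for their survival and division. A dividing cell first makes the replication machinery and nucleotides under control of E2F factors and copies its DNA in S phase. It then switches on the mitotic genes in G2, many of them through the DREAM and B-MYB-FOXM1 complexes, which act at CHR and CCAAT elements of their promoters, and destroys much of the mitotic protein when it divides. In injured muscle, macrophages clear debris and release factors that act on muscle stem cells and vessels.

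The promoters of 3 division genes and of 1 replication gene are printed because the members were picked by such genes; the 3 were chosen for holding both a CHR and a CCAAT match, which most G2 and mitosis genes do not. Each line gives 200 bases upstream of the gene's start from RefSeq (build GRCm38.p6), 5′ to 3′ on the gene's strand, with matches on either strand in capitals. They mark the CHR element, spelled TTTGAA, and the pentamer of the CCAAT box. They also mark an E2F motif, spelled TTTGGCGC in one form and as TTTCCCGC in another. Top2a, the topoisomerase that untangles chromosomes, lies at chr11:99024190-99024389 on the minus strand, Ube2c, the ubiquitin-conjugating enzyme of the anaphase-promoting complex, at chr2:164769729-164769928 on the plus strand, and Cdk1, the mitotic kinase, at chr10:69352913-69353112 on the minus strand. Mcm6, a subunit of the replicative helicase, lies at chr1:128359706-128359905 on the minus strand.
Top2a: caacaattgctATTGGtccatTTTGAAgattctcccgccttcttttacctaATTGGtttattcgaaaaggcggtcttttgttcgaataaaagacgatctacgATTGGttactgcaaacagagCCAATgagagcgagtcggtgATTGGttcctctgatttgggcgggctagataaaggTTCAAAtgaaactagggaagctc
Ube2c: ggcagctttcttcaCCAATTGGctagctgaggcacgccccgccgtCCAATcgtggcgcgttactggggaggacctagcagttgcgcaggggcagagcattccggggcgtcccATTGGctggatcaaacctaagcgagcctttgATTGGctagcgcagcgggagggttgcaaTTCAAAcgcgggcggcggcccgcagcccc
Cdk1: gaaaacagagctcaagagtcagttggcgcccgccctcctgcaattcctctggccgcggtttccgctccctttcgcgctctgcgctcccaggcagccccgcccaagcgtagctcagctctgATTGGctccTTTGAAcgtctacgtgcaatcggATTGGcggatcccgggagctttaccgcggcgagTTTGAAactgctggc
Mcm6: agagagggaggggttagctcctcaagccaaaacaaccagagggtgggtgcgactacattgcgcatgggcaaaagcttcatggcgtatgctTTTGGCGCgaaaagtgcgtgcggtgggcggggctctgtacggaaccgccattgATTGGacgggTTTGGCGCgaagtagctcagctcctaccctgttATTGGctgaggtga

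A CHR began 23 bases before the start of Top2a, 29 before that of Ube2c and 15 before that of Cdk1, each with CCAAT matches further upstream. Mcm6 had no CHR and carried E2F matches 110 and 47 bases before its start. In the 250 bases before the start, CHR and CCAAT stood together in 4 of the 6 rule genes the table holds (Mki67, Top2a, Ube2c and Cdk1), against 6.45% of 27025 genes, while Birc5 and Nusap1 did not hold the pair. In a wider list of G2 and mitosis genes, 13 of 40 had both (32.5%). A CCAAT match, with or without a CHR, was in 80% of that list, in 57.1% of replication and S phase genes and in 37.5% of all genes. E2F matches were in 6 of 28 replication and S phase genes (21.4%), against 1.51% of all genes and 5% of the G2 and mitosis list. The pair of CCAAT matches 186 and 183 bases before Ube2c overlap, being the 2 strands of 1 palindrome. A match is a stretch of letters and not a shown binding site.

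The WT library held 13837 kept barcodes with a median of 4461 UMIs, and the Apoa1bp-/- library 9164 with a median of 6825. Detection of the rule's genes depends on depth, so shares are given as deposited and at matched depth. The gates and the rule were applied again after each thinning, so barcodes outside them as deposited could enter. The rule itself sorts cells by depth: members had a median of 9327 UMIs against 4062 in non-cycling cells of WT, and 14985 against 5874 in Apoa1bp-/-. Of the members, 30 in WT and 23 in Apoa1bp-/- were called doublets, 7.79% and 9.16%; the caller found 50.1% and 32.7% of simulated doublets, so these shares are partial and not alike between the libraries. The libraries shared 39 kept barcode sequences, of which 3 in each library belonged to members and none was a member in both. All intervals below are exact 95% intervals that cover counting error alone.

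Naxe was checked first as the deleted gene. It had 248 UMIs in 164 of the 385 WT cycling cells (61.4 CPM, the counts scaled to the summed UMIs of the cells) and 0 UMIs in the 251 Apoa1bp-/- cells. Against a limit of 3 UMIs over the group (0.744 CPM), it was at least 82.4-fold lower, as the label of the library states. Naxd, the dehydratase that acts in the same repair pathway, stood at 41.6 CPM in WT and 48.9 CPM in Apoa1bp-/- cells.

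The markers the rule used are given as a description, since it fixed their presence. Mki67, a coat protein of mitotic chromosomes, had 269 CPM in WT and 183 CPM in Apoa1bp-/- cycling cells, and Top2a at 438 and 316 CPM. Birc5, the survivin subunit of the chromosomal passenger complex, was at 521 and 605 CPM. Mki67 and Top2a were thus higher in the WT library and Birc5 in the Apoa1bp-/- library. Of macrophage markers outside the rule, Lyz2 (lysozyme) was found in 100% of WT and 99.6% of Apoa1bp-/- members, Cd68 (a lysosomal glycoprotein) in 93.2% and 97.6%, and Adgre1 (F4/80) in 81.3% and 83.3%. Csf1r was at 394 and 252 CPM, below the 806 and 613 CPM of the non-cycling cells. C1qa (complement C1q) was at 3901 and 3316 CPM, against 5347 and 6111 CPM. For Csf1r and C1q the rule sets a floor in UMIs. Csf1r had a median of 3 UMIs per cell in members and non-cycling cells of both libraries. Members were deeper, and the part of depth in these CPM differences was not tested.

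Among the other rule genes, Nusap1, a spindle microtubule protein, was the 1 gene past 1.5-fold between the libraries, at 209 CPM in WT and 118 CPM in Apoa1bp-/- (ratio 0.561, interval 0.501 to 0.629). Ube2c was at 488 and 560.5 CPM, Ccna2 (cyclin A2) at 133 and 119 CPM, Cdk1 at 227 and 238 CPM, and Tpx2 (an activator of Aurora A) at 142 and 152 CPM. All 8 genes were detected in 117 of the 385 WT members and in 100 of the 251 Apoa1bp-/- members, and exactly 3 in 50 and 26. Members with exactly 3 genes had a median of 5684 UMIs in WT. WT macrophages with exactly 2 that included Mki67 or Top2a, just outside the rule, had 6348 UMIs. Outside the rule lay 115 WT and 113 Apoa1bp-/- macrophages with exactly 2 of the genes, 60 and 44 of them with Mki67 or Top2a. Another 24 and 25 held 3 or more but neither Mki67 nor Top2a. A further 158 and 133 barcodes met every other criterion but held a UMI of Pdgfra, Cdh5 or Cdh15.

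The share of macrophages that were cycling was close between the libraries as deposited. It was 8.13% in WT (385 of 4736, interval 7.37 to 8.94%) and 8.68% in Apoa1bp-/- (251 of 2892, 7.68 to 9.77%), a ratio of 1.07 (0.907 to 1.26). With 66.5% of the Apoa1bp-/- UMIs kept at random, which brought its macrophages to the WT median depth, the share was 7.63% (203 of 2662) and the ratio 0.938 (0.788 to 1.11). At 2000 UMIs in every cell it was 3.76% (121 of 3222) in WT and 3.15% (58 of 1839) in Apoa1bp-/-, ratio 0.84 (0.603 to 1.16). At 4000 UMIs, which leaves out 1991 WT and 669 Apoa1bp-/- macrophages as too shallow, it was 9.3% and 6.14%, ratio 0.66 (0.525 to 0.827). The direction thus changed with depth, and the interval excluded equal shares at 4000 UMIs alone of these depths.

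Within each library the share was higher in cells with more UMIs. Below 2000 UMIs, 1.08% of WT and 0.893% of Apoa1bp-/- macrophages were cycling, and at 16000 UMIs or more 43.2% and 48.5% were. The libraries differed most as a ratio at 4000 to 8000 UMIs, where 119 of 1755 WT cells (6.78%) and 21 of 1077 Apoa1bp-/- cells (1.95%) were members, and in percentage points at 8000 to 16000 UMIs, where the shares were 20.1% and 11.8%. Macrophages had a median of 4567 UMIs in WT and 6870 in Apoa1bp-/-, so 1 bin does not hold like parts of the libraries. The part of that shift in these differences was not tested. With cells that held 2 or more markers of another lineage left out, 128 of 2486 WT and 153 of 2207 Apoa1bp-/- macrophages were cycling, a ratio of 1.35 (1.06 to 1.72). That filter kept 128 of the 385 WT members and 153 of the 251 Apoa1bp-/- members. At least 2 fibroblast markers were held by 59.5% of WT and 33.1% of Apoa1bp-/- members. Detection of such markers also depends on depth, and the part of depth or free RNA in this ratio was not tested.

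**Figure D1:**
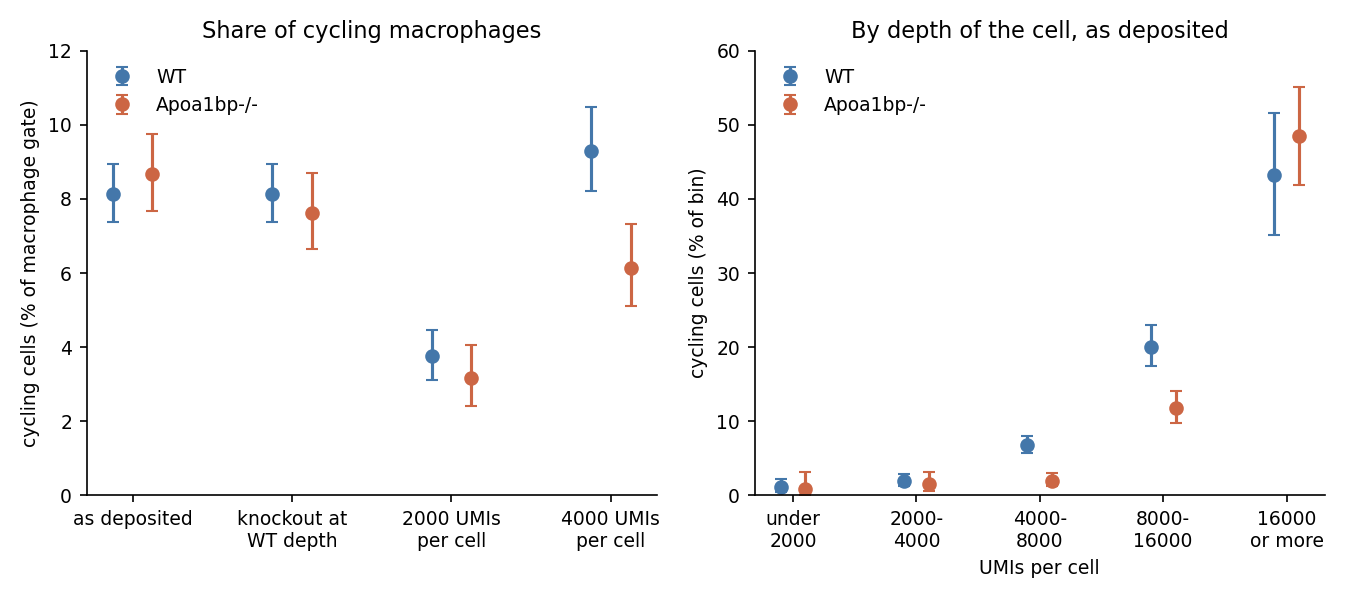
Share of macrophages that were cycling, in percent with exact 95% intervals (counting error only), in WT (blue) and Apoa1bp-/- (orange) libraries; left, as deposited and at 3 settings of matched depth; right, by UMIs per cell as deposited. The ratio is 1.07 as deposited and 0.66 at 4000 UMIs per cell, and the share climbs from about 1% below 2000 UMIs to 43.2% and 48.5% at 16000 UMIs or more.

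As deposited, the libraries differed more in other cells of the muscle than in macrophages. The same 8 genes gave a cycling share of 2.91% in WT and 10.6% in Apoa1bp-/- Pdgfra+ cells, 10.8% and 24.5% in Cdh15+ cells, and 7.45% and 16.3% in Cdh5+ cells, ratios of 3.66, 2.27 and 2.18. At 2000 UMIs per cell those ratios were 1.7 (0.809 to 3.45), 2.43 (1.45 to 4.20) and 1.1 (0.635 to 1.93), against 0.84 in macrophages. At 4000 UMIs they were 1.57 (0.980 to 2.51), 1.72 (1.20 to 2.50) and 1.16 (0.735 to 1.87), against 0.66 in macrophages, so at matched depth the Cdh5+ cells were no farther from equal shares than macrophages were. Neutrophils, which do not divide, gave 0 of 34 cells in WT (which allows up to 8.82%) and 3 of 84 in Apoa1bp-/- (median 1249 and 1754 UMIs).

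Members ran through S phase to mitosis rather than forming 1 state. Each cell was placed by the share of its S and G2/M UMIs that came from the G2 and mitosis list. Its median was 73.9% in WT (quartiles 52.5 and 87.5%) and 75.9% in Apoa1bp-/- (46.7 and 88.2%). In WT 24 cells were under 25% (6.23%), 164 were between 25 and 75% (42.6%) and 180 were over 75% (46.8%), while 17 had under 10 such UMIs. In Apoa1bp-/- the counts were 20 (7.97%), 99 (39.4%), 124 (49.4%) and 8. The intervals of each class overlapped between libraries. Most of the 8 rule genes are known to peak in G2 and mitosis, so the rule itself favours the later phases.

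Genes outside both lists differed between these classes. H2ac8, a replication-dependent H2A histone, was at 297, 1771 and 746 CPM in the WT classes from low to high G2/M share, and at 122, 1315 and 338 CPM in the Apoa1bp-/- classes. It was thus highest in the middle class of each library, as was Esco2, the S-phase cohesin acetyltransferase, at 51.1 and 51.5 CPM. Aspm, a spindle pole protein, was at 18.5, 31.5 and 122 CPM in WT and at 6.96, 26 and 95.4 CPM in Apoa1bp-/-. Cep55, which acts in the final abscission of daughter cells, had 0 UMIs in the lowest WT class and stood at 27.7 and 76.9 CPM in the other classes. Nucleotide and one-carbon synthesis genes summed to 1264, 1312 and 887 CPM in WT and to 1426, 1353 and 881 CPM in Apoa1bp-/-, lowest in the cells with most mitotic RNA. Histone genes such as H2ac8 have near-identical copies, so counts of any single one are uncertain.

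**Figure D2:**
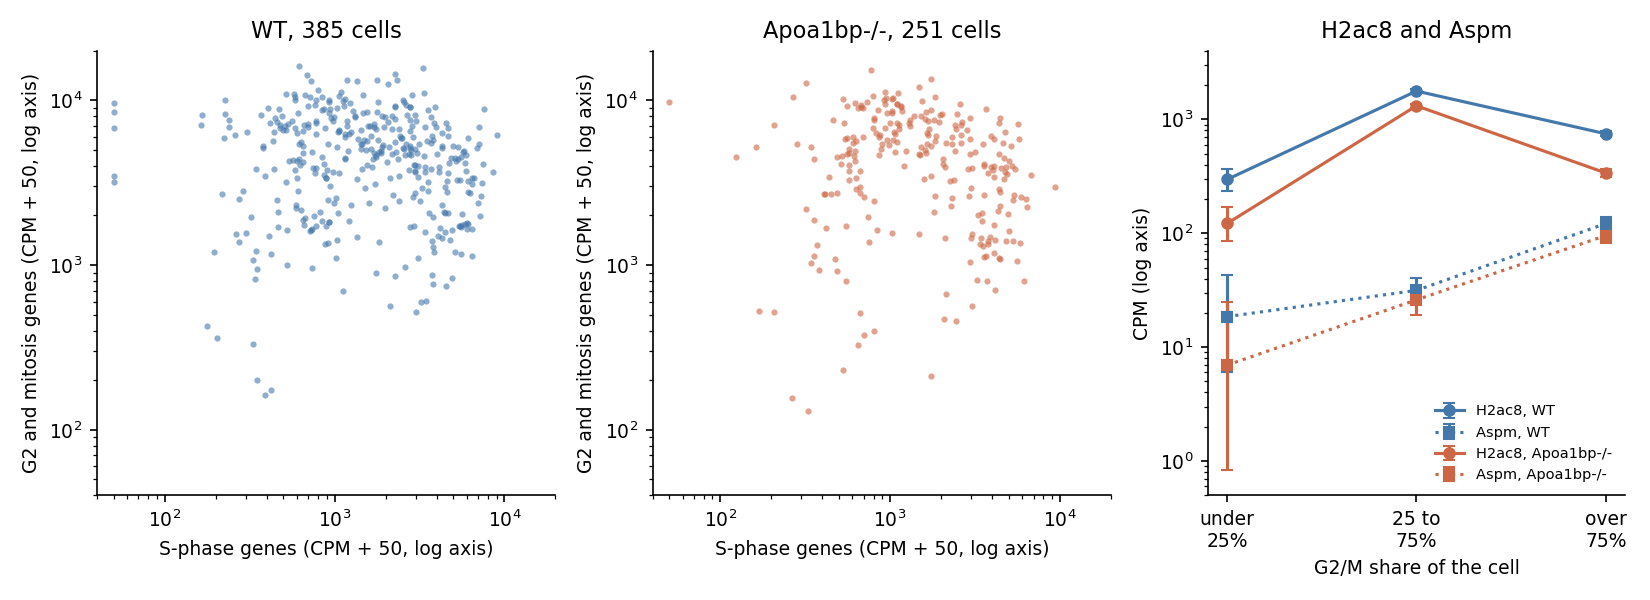
Each point of the left and middle panels is 1 cycling macrophage, with summed CPM of the S phase list on the x axis and of the G2 and mitosis list on the y axis (log axes, 50 CPM added); the right panel gives CPM of H2ac8 and Aspm (log axis, exact 95% intervals) in cells by G2/M share. Both libraries spread over the whole range, H2ac8 is highest between 25 and 75%, and Aspm is highest over 75%.

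Cycling cells differed from non-cycling macrophages far beyond the 8 genes, but the rule used this contrast and these values are a description. At least 1.5-fold higher were 918 of 6013 genes in WT (15.3%) and 1138 of 5629 in Apoa1bp-/- (20.2%), and lower were 650 (10.8%) and 859 (15.3%), among genes of 20 CPM or more in either group. All 32 replication and S phase genes reaching 20 CPM were higher in each library, with median log2 ratios of 2.59 and 2.53, and so were 45 of 46 and 46 of 47 G2 and mitosis genes, at 5.36 and 5.61. Pttg1 (securin) was the exception, at 44 CPM against 47.4 CPM in non-cycling WT cells; it was singled out after its values were seen. Rrm2, the regulated subunit of ribonucleotide reductase, was at 92 CPM in WT cycling cells and 1.54 CPM in non-cycling cells, and at 83.4 and 1.81 CPM in Apoa1bp-/-. Pcna, the replication clamp, was at 288 CPM against 75.5 CPM in WT and at 332 against 82.9 CPM in Apoa1bp-/-.

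Leading the genes outside the fixed division lists were further parts of the same machinery. Pclaf, a PCNA-binding factor, had 340.4 CPM in WT and 373 CPM in Apoa1bp-/- cycling cells, against 3.6 and 4 CPM in non-cycling cells. Aspm was at 71 and 56.3 CPM against 0.458 and 0.471 CPM, and Ska1, of the kinetochore Ska complex, at 48 and 53.6 CPM against 0.343 and 0.471 CPM. Pimreg, Nek2, Neil3, Spag5, Cep55, Esco2, Prr11, H3c3 and H2ac8 completed the 12. All of these were higher in cycling cells of both libraries, by 58.6-fold (H2ac8 in Apoa1bp-/-) or more.

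Growth metabolism was higher in cycling cells and more so at some steps than others. Of 13 nucleotide and one-carbon genes, 10 were past 1.5-fold in WT and 13 in Apoa1bp-/- (medians 0.93 and 0.98 log2), among them Mthfd2, a mitochondrial folate enzyme (41.6 against 12.8 CPM in WT; 34.2 against 8.09 CPM in Apoa1bp-/-). Ribosome production genes were higher in 5 of 13 and 8 of 14 cases, with Nop58, a nucleolar protein, at 50 against 20 CPM in WT. Glycolysis genes were higher in 5 of 15 and 9 of 15 (medians 0.52 and 0.74), among them Pgk1 at 207 against 107 CPM in WT. Nuclear genes of oxidative phosphorylation had medians of 0.36 and 0.43, with 0 and 4 of 28 past 1.5-fold. Cycling cells are deeper, and among cells of 1 depth range (5932 to 13911 UMIs in WT, 193 cycling and 885 non-cycling cells) the nucleotide median was 0.91 and the glycolysis median 0.27.

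Antigen presentation was the clearest programme at lower level in cycling cells. Of 10 class II presentation genes, 8 were past 1.5-fold lower in WT and 9 in Apoa1bp-/-, with medians of -1.21 and -1.78, and with -1.07 and -1.57 at matched depth. H2-Aa, a chain of the class II molecule, was at 828 CPM against 2674 CPM in WT and at 583 against 2854 CPM in Apoa1bp-/-. Cd74, the invariant chain, was at 2063 against 6495 CPM and at 1847 against 8343 CPM. The class II sum fell off along the rule in WT, from 16320 CPM with none of the 8 genes to 10830 CPM in the cells between and 5527 CPM in members. The other leading lower genes were Apoe (11180 against 34540 CPM in WT), which carries lipid, Selenop (1128 against 3566 CPM), which carries selenium, Trf (115 against 398 CPM), the iron carrier transferrin, and Ccl5 (17.3 against 91.1 CPM), a T cell chemokine, with Ighm, Hpgd, Tcp11l2 and Gpr34. Each was also lower in Apoa1bp-/-.

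Regulators of macrophage identity were modestly lower. Of 17 CSF1R-axis genes, 6 in WT and 8 in Apoa1bp-/- were past 1.5-fold lower and none was higher; Irf8, a factor of the monocyte lineage, was at 127 against 273 CPM in WT and at 147 against 273 CPM in Apoa1bp-/-. LXR and cholesterol efflux genes were lower in 6 of 12 and 6 of 11 cases, such as Pltp, the phospholipid transfer protein (552 against 1280 CPM in WT). Immediate early genes were lower in 7 of 16 and 11 of 16. The resident macrophage list had medians of -0.36 and -0.74, against 0.15 and 0.04 among cells of 1 depth range and 0.06 and -0.59 with cells thinned to 2000 UMIs, so its direction turned under both in WT and under the first alone in Apoa1bp-/-.

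**Figure D3:**
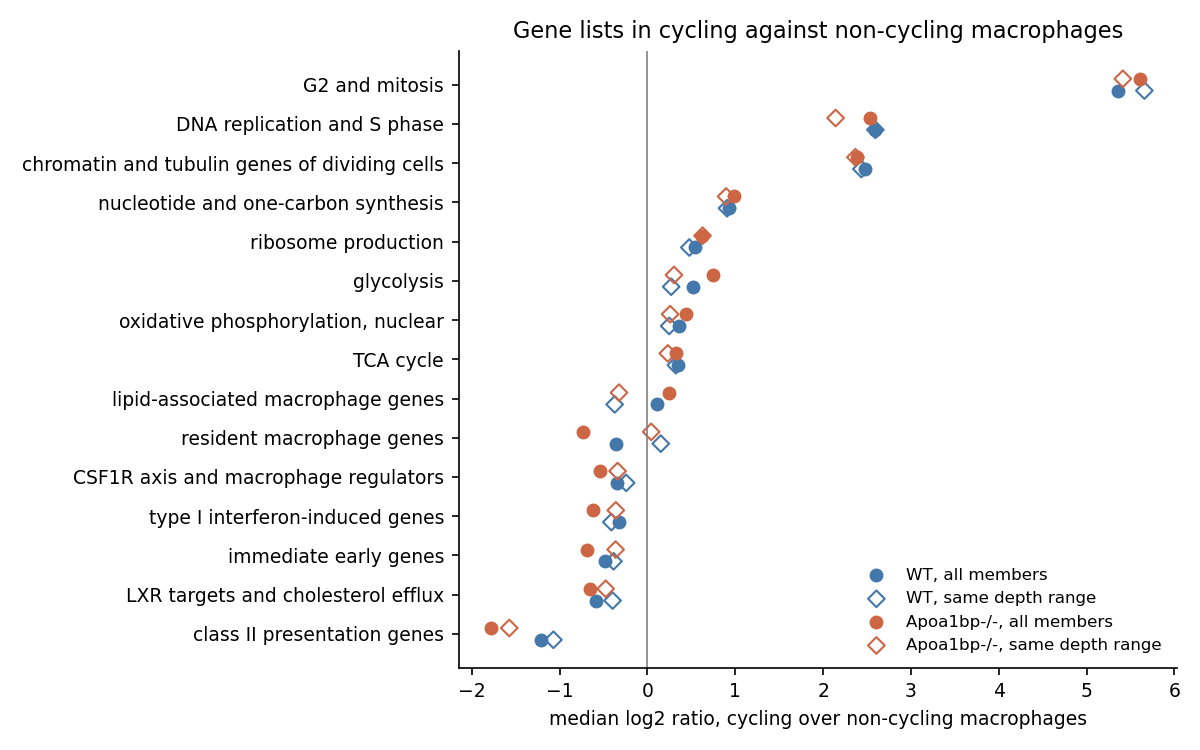
Median log2 ratio of cycling over non-cycling macrophages for 15 gene lists in WT (blue) and Apoa1bp-/- (orange), over all cells (filled circles) and over cells of the same depth range (open diamonds). G2 and mitosis genes stand at 5.36 and 5.61, class II genes at -1.21 and -1.78, and the resident list changes sign in the cells of the same depth range.

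Dividing cells were found in each of the macrophage states gated, and the gates overlap. As deposited, 77.9% of WT and 90.4% of Apoa1bp-/- members held 2 or more of Gpnmb, Spp1 and Fabp5 (lipid-associated), and 17.7% and 1.99% held 2 or more of Cd163, Fcna and Lyve1 (resident). In non-cycling cells those shares were 53.6% and 62.1%, and 12.6% and 1.73%. At 2000 UMIs per cell the lipid-associated share was 46.3% of WT and 46.6% of Apoa1bp-/- members, against 43% and 48.4% of non-cycling cells. The resident share was then 12 of 121 WT members (9.92%) and 0 of 58 Apoa1bp-/- members, which allows up to 5.17%, against 8.83% and 1.01% of non-cycling cells. As a check on free RNA, Spp1 was found in 9.41% and 12% of T and B cell barcodes, Fabp5 in 14.1% and 25.3%, Lyve1 in 2.35% and 0% and Fcna in none (median 1629 and 2535 UMIs). In neutrophil barcodes Spp1 was found in 20.6% and 13.1% and Fabp5 in 32.35% and 34.5%, with Lyve1 and Fcna in none (median 1249 and 1754 UMIs). The part of free RNA in the lipid-associated gate was not tested.

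The class II gate (Cx3cr1 with H2-Ab1) held a smaller part of the dividing than of the non-dividing cells at matched depth, but not in WT as deposited. As deposited it held 33% of WT and 31.1% of Apoa1bp-/- members, against 29% and 42.7% of non-cycling cells. At 2000 UMIs it held 10.7% of WT and 10.3% of Apoa1bp-/- members, against 20.3% and 26.5% of non-cycling cells. The cycling share was 2.06% inside the gate and 4.17% outside it in WT, and 1.31% and 3.77% in Apoa1bp-/-. In the resident gate of WT it was 4.3% against 3.7% outside, in the lipid-associated gate 3.96% against 3.59%, and in the monocyte-derived gate (Ly6c2 or Ccr2) 4.5% against 3.6%. At that depth the same gates of Apoa1bp-/- did not repeat this. There the cycling share was 0 of 17 cells against 3.18% (resident), 3.02% against 3.28% (lipid-associated) and 3.16% against 3.15% (monocyte-derived). At 4000 UMIs the resident gate had 14.3% against 8.72% in WT, and 2 of 16 cells against 6.09% in Apoa1bp-/-. The lipid-associated gate then had 9.06% against 9.77%, and 7.05% against 4.41%. The monocyte-derived gate had 10.8% against 8.87%, and 4.12% against 7.03%. The direction thus depended on depth, except in the resident and monocyte-derived gates of WT. In the WT interferon gate at 2000 UMIs the cycling share was 1.43%, from 1 of 70 cells, against 3.81% outside. In that gate of Apoa1bp-/- it was 3.66%, from 3 of 82 cells, against 3.13%. H2-Ab1 was also found in 17.6% and 20.2% of neutrophil barcodes, and in 41.2% and 50.7% of T and B cell barcodes, of which B cells express it themselves; the part of free RNA in this gate was not tested. Interferon-state cells, with 2 or more of Cxcl10, Rsad2 and Ifit2, were 12 of 385 WT and 37 of 251 Apoa1bp-/- members as deposited (3.12% and 14.7%), and 1 of 121 and 3 of 58 at 2000 UMIs.

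Between the genotypes, members were compared gene by gene; their division genes helped to choose the members in both libraries, so the levels of those genes are a description and are not set against the other lists. Of 5727 genes with 20 CPM or more in either library, 217 were at least 1.5-fold higher in Apoa1bp-/- cycling cells (3.79%) and 634 lower (11.1%), with a median log2 ratio of -0.11 over all genes. With median-of-ratios scaling the counts were 371 and 409, and the all-gene median moved by 0.12, so list medians are read against that median. Of 33 replication and S phase genes 0 were higher and 1 lower, the list median being -0.12, or -0.01 relative to all genes. Of 47 G2 and mitosis genes 1 was higher and 3 lower, with a median of -0.18, or -0.07 relative to all genes. Ccnb1, which activates CDK1 at mitotic entry, had 116 CPM in WT and 87.3 CPM in Apoa1bp-/-, and Cenpa, the centromeric histone H3, at 353 and 358 CPM.

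Some division genes passed 1.5-fold. Lower were 3 of 47 G2 and mitosis genes and 1 of 33 replication genes, smaller shares than the 11.1% of all genes. Higher was 1 of the 47, beside 3.79% of all genes. Ccne2 (cyclin E2), which drives entry to S phase, had 33.6 CPM in WT and 19.4 CPM in Apoa1bp-/- (ratio 0.575, 0.43 to 0.766). Bub1b, a spindle checkpoint kinase, was at 71.5 and 42.4 CPM, Ect2, which starts cytokinesis, at 45.5 and 27 CPM, and Hjurp, the chaperone of CENP-A, at 81.9 and 48.9 CPM. Pttg1 alone of the G2 and mitosis list was past 1.5-fold higher, at 44 and 66.5 CPM (1.51, 1.245 to 1.84); its ratio in non-cycling cells was 1.42. Lbr, the lamin B receptor of the nuclear envelope, was at 84.4 and 39 CPM (0.462, 0.38 to 0.56). Apart from Pttg1 these were lower in Apoa1bp-/- members.

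Regulators of cell cycle entry were split. Of 19 cyclins, CDK inhibitors and E2F control genes 1 was higher and 5 lower, with a median of -0.24. Ccnd1 (cyclin D1) had 83.4 CPM in WT and 111 CPM in Apoa1bp-/- members and Cdk4, its kinase, at 127 and 175 CPM, both under 1.5-fold. Lower past 1.5-fold were the inhibitors Cdkn1b (p27; 54.4 and 35.2 CPM) and Cdkn2c (p18; 130 and 73.2 CPM), the retinoblastoma protein genes Rb1 (37.4 and 20.1 CPM) and Rbl1 (41.3 and 25.8 CPM), and the antiproliferative Btg1 (311 and 201 CPM). Btg2, a related antiproliferative and early response gene, was higher, at 48 and 104 CPM (2.16, 1.81 to 2.57), and at 118 and 295 CPM in non-cycling cells. None of the 6 p53 targets at 20 CPM was past 1.5-fold; their median was 0.30, with Bax, which promotes apoptosis, at 322 and 398 CPM and Ccng1 (cyclin G1) at 25.5 and 35.2 CPM.

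Resident macrophage genes had the lowest median of the macrophage lists in Apoa1bp-/- members. Of 12 at 20 CPM, 10 were past 1.5-fold lower and 0 higher, with a median of -1.50 (-1.39 relative to all genes). Lyve1, a hyaluronan receptor of perivascular macrophages, was at 78.9 CPM in WT (74 cells) and 5.21 CPM in Apoa1bp-/- (7 cells), a ratio of 0.066 (0.0403 to 0.103). Cd163, the haptoglobin-haemoglobin scavenger receptor, was at 28.4 CPM in 41 cells and 2.98 CPM in 3 cells. F13a1, coagulation factor XIII A, was at 255 and 50.4 CPM, Fcna, a ficolin lectin, at 88.1 and 21.6 CPM, and Gas6, a bridging ligand for efferocytosis, at 165 and 57.6 CPM. Folr2, a folate receptor, at 405 and 307 CPM, and Pf4, a platelet-factor chemokine, at 2611 and 3093 CPM, did not pass. The same list had a median of -1.21 in non-cycling cells, with 10 of 13 lower, where 3.58% of 5536 genes were higher and 10.3% lower, and of -0.79 in members once those in the resident gate were left out.

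Alternative activation genes stood lower together. Of 11, 9 were past 1.5-fold lower and 0 higher, with a median of -1.05. Retnla, an IL-4-induced secreted protein, was at 762 CPM in 108 WT cells and 43.2 CPM in 14 Apoa1bp-/- cells (0.0566, 0.0483 to 0.066). In WT 5 cells held 53.3% of its UMIs, and in Apoa1bp-/- 5 cells held 94.8%. Clec10a, a galactose lectin, was at 75.2 and 19.8 CPM, Ccl24, an eosinophil chemokine, at 59.4 and 9.18 CPM, Ccl6 at 894 and 327 CPM, and Il4ra, the IL-4 receptor chain, at 98 and 44.7 CPM. Arg1, the arginase that is a hallmark of this state in mice, stood level at 20.8 and 21.8 CPM. Fibroblast RNA differed between the libraries too: the 6 fibroblast markers summed to 2259 CPM in WT and 770 CPM in Apoa1bp-/- members, with Pdgfra at 0 by the rule and 2 or more markers in 229 WT (59.5%) and 83 Apoa1bp-/- (33.1%) cells. Without cells holding 2 markers of another lineage the resident median was -1.63 and the alternative activation median -1.49.

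The CSF1R axis and factors of macrophage identity leaned the same way. Of 17 genes, 5 were past 1.5-fold lower and none higher, with a median of -0.28. Csf1r itself, which the rule requires at 1 UMI or more, had a ratio of 0.641 (0.592 to 0.694). Its median was 3 UMIs per cell in members of both libraries, at median depths of 9327 and 14985 UMIs. The part of depth in that ratio was not tested. Maf, which restrains macrophage self-renewal in mice, had 366 CPM in WT and 174 CPM in Apoa1bp-/- members (0.475, 0.434 to 0.520). Klf2 and Klf4, which restrain inflammatory genes, were at 61.8 and 38.7 CPM and at 53.7 and 34.7 CPM. Spi1 (PU.1), the founding factor of the lineage, stood level at 294 and 304 CPM.

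Type I interferon-induced genes had the highest median of the macrophage lists in Apoa1bp-/- members. Of 20 at 20 CPM, 13 were past 1.5-fold higher and 0 lower, with a median of 0.82 (0.93 relative to all genes). Isg15, a ubiquitin-like modifier, was at 76.2 CPM in 81 WT cells and 186 CPM in 156 Apoa1bp-/- cells, a ratio of 2.44 (2.13 to 2.79). Those are 21% and 62.2% of members at median depths of 9327 and 14985 UMIs, beside 9.41% and 22.7% of T and B cell barcodes at 1629 and 2535 UMIs. In neutrophil barcodes it was found in 23.5% and 55.95%, at 1249 and 1754 UMIs. Of the WT members, 5 cells held 60.7% of the UMIs. Rtp4 was at 42.3 and 108 CPM, Irf7, the amplifying factor of the response, at 60.8 and 116 CPM, Oas1a, a sensor of double-stranded RNA, at 38.3 and 82.9 CPM, and Bst2 (tetherin) at 412 and 787 CPM. Ifit1 and Ifit3, at 32.6 and 39 CPM and at 32.9 and 39.7 CPM, did not pass, and Ifitm3 was level at 1511 and 1426 CPM. In non-cycling cells 20 of 24 genes of the list were higher and the median was 0.92.

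Monocyte and inflammatory genes were higher in part. Of 16, 6 were past 1.5-fold higher and 0 lower, with a median of 0.52. Ccl2, the ligand that draws CCR2+ monocytes, had 429 CPM in WT and 1033 CPM in Apoa1bp-/- members (2.41, 2.27 to 2.54), and Ccl7, a second CCR2 ligand, at 224 and 602 CPM. Il1b, also at 10 times its level or more in another cell gate, was at 25.7 and 65 CPM and Tnf at 18.3 and 31.5 CPM. Ccr2 itself was at 110 and 92.6 CPM, and S100a4, a calcium-binding protein, at 2283 and 1637 CPM, neither past 1.5-fold. Of 19 chemokine and receptor genes 4 were higher, Cxcl10 and Ccl12 with Ccl2 and Ccl7, and 5 lower, Ccl6, Ccl8, Ccl9, Ccl24 and Cxcr4. Neutrophil markers were at 17.8 CPM in WT and 471 CPM in Apoa1bp-/- members, and 806 of 848 S100a8 UMIs there came from 1 cell.

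Lipid-associated macrophage genes moved little as a list. Of 19, 3 were higher and 2 lower, with a median of 0.14. Higher were Fabp5, a fatty acid binding protein, at 2845 CPM in WT and 4507 CPM in Apoa1bp-/- members (1.58, 1.55 to 1.62), Spp1 (osteopontin) at 2569 and 3962 CPM, and Syngr1 at 207 and 347 CPM. Ctsk, cathepsin K, at 115 and 27.5 CPM, and Mmp12, macrophage elastase, at 626 and 351 CPM, were lower. Ctsk was at 10 times its level in members or more in another cell gate, and fibroblast marker RNA was lower alongside it; its part was not tested. Gpnmb was at 724 and 746 CPM and Trem2, the lipid-sensing receptor of this state, at 907 and 1105 CPM. LXR and efflux genes had 3 of 11 lower and none higher, being Abca1, the cholesterol exporter (211 and 137 CPM), Pltp (552 and 341 CPM) and Abca9 (30.2 and 7.2 CPM).

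Class II genes had opposite signs in cycling and non-cycling cells. In members the median over 9 genes was -0.38, with H2-Ab1 at 1039 CPM in WT and 758 CPM in Apoa1bp-/- and 1 gene past 1.5-fold, Ciita, the class II transactivator, at 23.5 and 12.2 CPM. In non-cycling cells the median was 0.22, H2-Ab1 being at 2963 and 3307 CPM. With cells thinned to 2000 UMIs and the rule applied again, 121 WT and 58 Apoa1bp-/- cells met it, and their median was 0.21. With the Apoa1bp-/- library thinned to WT depth it was -0.41. The direction in members thus depended on how depth was matched.

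Glycolysis, nucleotide, ribosome production and nuclear oxidative phosphorylation lists had medians between -0.04 and 0.15. None of 15 glycolysis genes was past 1.5-fold (median 0.15), although Tpi1, Aldoa, Pgk1 and Pgam1 had ratios of 1.34, 1.33, 1.32 and 1.31. Among 14 nucleotide genes Gmps, of guanine synthesis, was past 1.5-fold at 22.5 CPM in WT and 35 CPM in Apoa1bp-/- members, and none was lower. Ribosome production had 0 of 14 past 1.5-fold in either direction. Nuclear oxidative phosphorylation genes had 1 of 28 higher, Uqcrb of complex III, at 304 and 602 CPM. Mitochondrially encoded transcripts had 4 of 13 higher and 1 lower, with a median of 0.54 (0.65 relative to all genes), and mt-Co2 was at 1359 and 3346 CPM; the mitochondrial share of UMIs had a median of 1.17% in WT and 1.75% in Apoa1bp-/- members. Of 6 genes of NAD(P)HX repair and NAD synthesis 2 were lower, Naxe and Cd38, an NAD-consuming enzyme (31.7 and 16.4 CPM).

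Ranked by how far the interval of the ratio lay from 1, the genes farthest higher in Apoa1bp-/- members were Ly6c2, Ms4a4c, Cxcl10, Ccl7, Ccl2, Rgs1, Isg15, Rtp4, Gdf15, Myl9, Fam241a and Ndufa4l2. Ms4a4c, a membrane protein of monocytes, was at 19.5 CPM in 46 WT cells and 73 CPM in 89 Apoa1bp-/- cells (3.73, 2.90 to 4.85). Rgs1, a regulator of G-protein signalling from chemokine receptors, was at 197 and 483 CPM in 198 cells of each library (2.45, 2.26 to 2.67). Both were spread over many cells and had ratios of 3.45 and 2.59 in non-cycling cells. Ly6c2, the Ly6C antigen of inflammatory monocytes, was at 4.21 CPM in 8 cells and 26.6 CPM in 15 cells, and 5 of those 15 held 86.9% of its UMIs. Likewise 5 cells held 70.8% of Myl9 UMIs, 80.4% of Ndufa4l2 UMIs and 49.7% of Gdf15 UMIs in Apoa1bp-/-, and each of the 3 turned lower under an alternative. For Cxcl10 5 cells held 76.7% of the WT and 56% of the Apoa1bp-/- UMIs, and 1 WT cell held 573 of 1736 Ccl2 UMIs and 1 held 315 of 904 Ccl7 UMIs. Fam241a was at 14.6 and 38.7 CPM in 49 and 107 cells.

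The genes farthest lower were Naxe, Retnla, Ccdc152, Lyve1, Cd163, Cbr2, Fxyd2, Ccl24, F13a1, Ltc4s, Stxbp6 and Fcna. Cbr2, a carbonyl reductase marking resident macrophages in mice, was at 139 CPM in 141 WT cells and 21.1 CPM in 45 Apoa1bp-/- cells (0.151, 0.119 to 0.19). Ltc4s, leukotriene C4 synthase, was at 169 and 33.2 CPM, and Fxyd2, a regulator of the sodium pump, at 102 and 16.6 CPM. Stxbp6 was at 30.7 and 6.0 CPM. All of the 12 were lower in non-cycling cells too, with ratios up to 0.393 (Ltc4s). Ccdc152, at 66.8 and 3.23 CPM, overlaps Selenop on the genome, so its counts are uncertain.

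**Figure D4:**
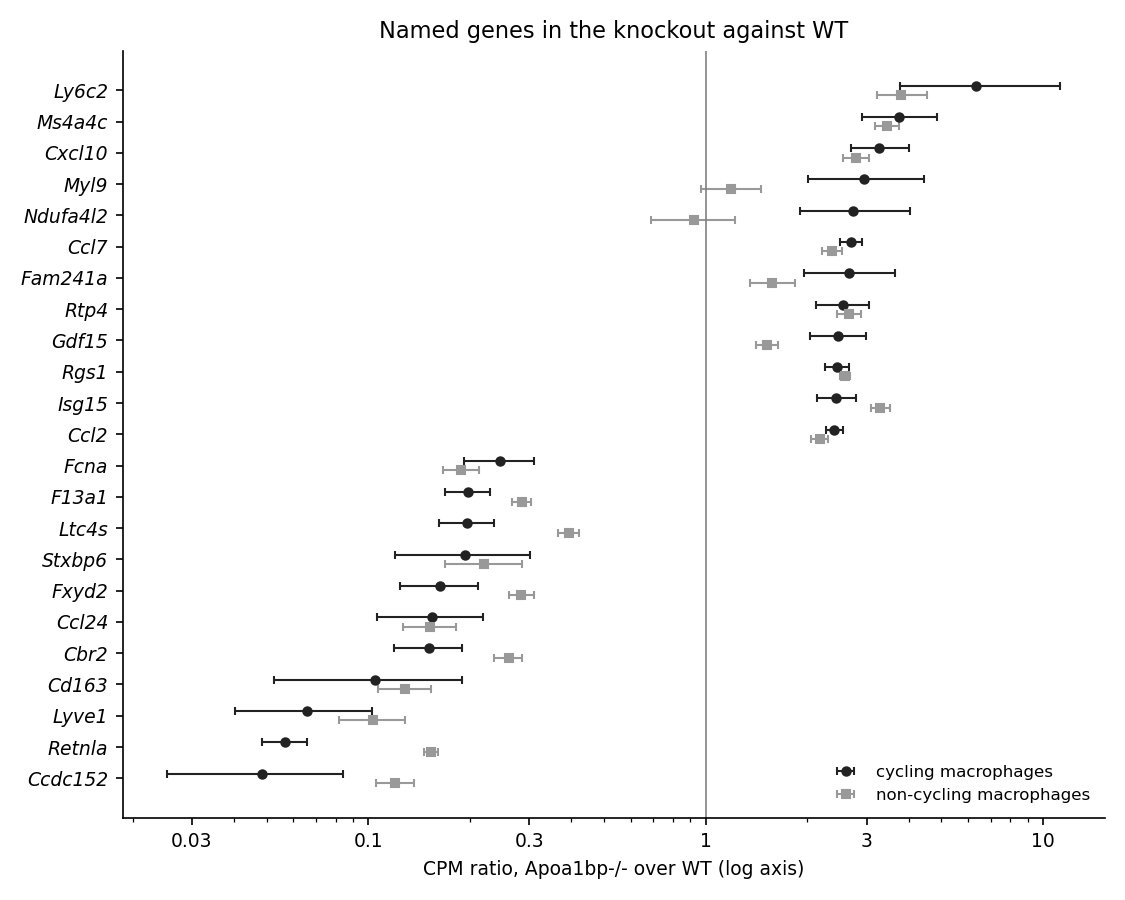
CPM ratio of Apoa1bp-/- over WT (log axis) with exact 95% intervals for the 12 genes farthest higher and 11 of the 12 farthest lower in cycling macrophages (black), beside the ratio in non-cycling macrophages (grey); Naxe, at 0 UMIs in Apoa1bp-/-, is not drawn. Myl9 and Ndufa4l2 alone have non-cycling intervals that reach 1, and every gene drawn below 1 in cycling cells is below 1 in non-cycling cells.

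Ligands by which macrophages act on neighbouring cells were measured in the members too. Of 13 growth factors and repair ligands, 4 were past 1.5-fold higher in Apoa1bp-/-, Gdf15, Osm, Spp1 and Anxa1, and Ccl8 was lower. Anxa1, which ends inflammation through formyl peptide receptors, had 436 CPM in WT and 708 CPM in Apoa1bp-/- members, and Osm (oncostatin M) at 16.8 and 29.5 CPM. Igf1, a growth factor for muscle, was level at 211 and 228 CPM, and Ccl8, a chemokine of resident macrophages, was at 685 and 245 CPM. Markers of endothelial, T and NK, B, dendritic, Schwann and mast cells each summed to between 1.49 and 27 CPM in the members of both libraries. Myogenic markers summed to 52 and 73 CPM, pericyte markers to 66.8 and 67.2 CPM and haemoglobin genes to 86.6 and 5.96 CPM; the part of these cells or their free RNA in the differences between libraries was not tested.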

How the data were processed

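Single-cell RNA-seq libraries of dissociated adductor muscle were made from WT and Apoa1bp-/- mice on the 10x platform, per the labels. The deposited values were UMI counts per gene and barcode for 32574 genes, made by the authors with Cell Ranger, whose version is 2.1.1 per the submitters' processing notes and 5.0.0 per the file headers; the genome build was not given in the sources used here. Barcodes with at least 200 genes and at most 10% mitochondrial UMIs were kept. Counts of the members were summed per library and given as CPM (counts per 1000000 UMIs), with exact Poisson intervals for levels, exact conditional intervals for ratios and Clopper-Pearson intervals for shares, at 95%. These cover counting error only, and 1 library per genotype allows no test between genotypes. A gene was called at 1.5-fold with 20 CPM or more in either group, with 0.5 added to each count for log2 ratios, and 0 UMIs were set at a limit of 3.

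Named genes were the 12 highest and 12 lowest by the interval bound nearest 1, leaving out ribosomal, mitochondrial, haemoglobin, sex-linked and clone-named genes and those at 10 times the level in another cell gate, plus the rule genes and the largest changes and most abundant member of each list. Some list members were named outside that rule, after their values were seen. The members and gene lists were chosen with earlier results of these data known. Doublets were scored by Scrublet's method rewritten in numpy (2 simulated doublets per cell, 2000 variable genes, 30 components, 0.8% expected per 1000 barcodes); it called 10.14% of WT and 4.867% of Apoa1bp-/- barcodes, which were kept unless stated. Ratio intervals were tested on simulated data. Alternatives were cells thinned to 1000, 2000 or 4000 UMIs, stricter gates, doublets or other-lineage cells left out, and other scalings and floors. Other-lineage cells are those with 2 or more markers of another lineage, and the part of free RNA in them was not tested. Python 3.11.15, numpy 2.4.6, scipy 1.17.1, pandas 2.3.3, scikit-image 0.26.0 and matplotlib 3.10.9 were used. Some items are not reported here.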

Additional observations from a re-analysis of the deposited data

Results flagged for a closer look

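In 2 gene lists the Apoa1bp-/- over WT median had opposite signs in cycling and non-cycling macrophages, and the difference was not tested. The median log2 ratio of p53 targets was 0.30 in cycling cells, over 6 genes, and -0.22 in non-cycling cells, over 7 genes that are not all the same. For class II presentation genes it was -0.38 in cycling cells, over 9 genes, and 0.22 in non-cycling cells, over 10 genes. Relative to the all-gene medians, p53 targets were at 0.41 in cycling and -0.10 in non-cycling cells, the latter close to all genes. Class II genes were then at -0.26 and 0.35.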

How the results depend on the processing

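The ratio of cycling shares, 1.07 as deposited, was 0.84 at 2000 UMIs per cell, 0.655 at 1000, 0.66 at 4000 and 1.35 without other-lineage cells, and lay between those over 11 alternatives. Of genes past 1.5-fold, 217 higher and 634 lower became 1640 and 1674 at 2000 UMIs, 2244 and 1865 at 1000, 647 and 1140 at 4000, 371 and 409 with median-of-ratios scaling, 113 and 243 with a floor of 50 CPM, and 2356 and 4068 with no floor. Without other-lineage cells 373 were higher. At 1000 UMIs 12 Apoa1bp-/- cells met the rule, and 20 CPM was under 1 UMI. The class II median turned to 0.21, 1.66 and 0.15 at 2000, 1000 and 4000 UMIs, and that of cholesterol synthesis to 1.66 at 1000. With the Apoa1bp-/- library thinned to WT depth the class II median kept its sign, at -0.41. Gdf15 turned to -1.75 at 2000 and -0.66 at 1000 UMIs, Myl9 to -0.52 at 2000 and -1.63 without other-lineage cells, Ndufa4l2 to -1.26 and -1.71 under the same settings, Ccl7 to -0.66 and Naxe to 0.078 at 1000. Between cycling and non-cycling cells the resident median turned to 0.064 (thinned) and 0.15 (same depth range) in WT and 0.042 (same depth range; -0.59 thinned) in Apoa1bp-/-, and the hypoxia median to -0.14 in WT. At 1000 UMIs a gene with equal counts in both libraries, 0 included, takes 1.66, because 38 WT and 12 Apoa1bp-/- cells were summed. Naxe had 0 UMIs in Apoa1bp-/- cells, so its 0.078 there comes from the 0.5 added to each count. The cause of the other turns was not tested. Over all alternatives the resident list lay between -2.14 and -0.79 and the interferon list between 0.49 and 0.97. Thinning of the Apoa1bp-/- library and the depth-matched contrasts were added after seeing the data. No paired analysis was possible because there is 1 library per genotype, and no replicate could be left out.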
